A study of Mus musculus with 9 samples.

Results

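Laminins, their integrin receptors and the proteins that anchor the epidermis to the basement membrane were examined in mouse back skin. A row of the deposited table was taken by gene symbol if it named a laminin chain (Lama, Lamb or Lamc), an integrin chain (Itga or Itgb), a nidogen, perlecan (Hspg2), agrin (Agrn), dystroglycan (Dag1), a hemidesmosomal plakin (Dst, Plec) or a protein of the Fraser complex (Fras1, Frem1, Frem2). Of 29205 genes, 50 taken in this way are described, and 47 of them encode such a protein. These are 10 laminin chains, 27 integrin chains and 10 linkers and anchors. Itgb1bp1, Itgb1bp2 and Itgb3bp matched by name alone, encode no integrin chain and were counted apart.

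Laminins are trimers of an alpha, a beta and a gamma chain that polymerise into the sheet on which basal keratinocytes, endothelium, muscle, nerve and fat rest. Nidogens and perlecan tie this sheet to the collagen IV network. Under the epidermis, the laminin that contains the alpha3 and beta3 chains (Lama3, Lamb3) is bound by integrin alpha6 beta4, and plectin and dystonin couple that integrin to keratin filaments inside the hemidesmosome. Integrins are alpha beta pairs. Those of the beta2 and beta7 groups belong to leukocytes and bind cells and soluble ligands rather than laminin, so they are treated apart from the epithelial integrins.

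The skin came from male BALB/c mice of 6 to 8 weeks, with the back shaved and depilated in every group. The IMQ group received 62.5 mg of imiquimod cream (5% w/w) a day for 5 days, which gives a psoriasis-like lesion. The LYS group received the same cream and Longkui Yinxiao soup, a herbal decoction that the study gave by mouth at its high dose. The control group (treatment "blank") received neither, so imiquimod cannot be told apart from the vehicle of its cream. Skin was collected on day 13. Each group holds 3 libraries, which the labels do not tie to separate animals, and a p-value therefore measures the spread between these samples. The comparisons share libraries: the IMQ group enters the first and the second, the LYS group the second and the third, and the control group the first and the third.

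Summed counts were 17149506 to 19609878 in control libraries, 16915191 to 17988104 in IMQ libraries and 14658645 to 16743869 in LYS libraries. Values per library are counts relative to library size (CPM), scaled with edgeR's TMM factors. Markers of keratinocytes, fibroblasts, endothelium and leukocytes were detected in every group, as the label of whole skin implies. Hair follicle keratins and associated genes (8 genes) summed to 2396 to 5220 CPM in control libraries, 28.1 to 34.1 in IMQ libraries and 10.4 to 30.0 in LYS libraries, and Krt31 was at 0 in both treated groups. IMQ 1 and LYS 1 stood apart from the other libraries of their groups. The 8 fibroblast markers summed to 10733 CPM in IMQ 1 against 4724 and 3383 in IMQ 2 and IMQ 3, and to 9239 in LYS 1 against 14807 and 17961 in LYS 2 and LYS 3. Counts of called members in the second comparison are therefore given below with and without each of these libraries. Both libraries were singled out from these same data, so a call that needs either of them left out does not test stability.

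A gene is called changed when its adjusted p is under 0.05 and its log2 fold change exceeds 0.58 in size (edgeR's quasi-likelihood test, Benjamini-Hochberg adjustment over all genes tested). Every adjusted p below is of this kind unless DESeq2 is named. Between the IMQ and control groups 45 of the 47 members could be tested, and 9 rose while 20 fell. Of all 15976 genes tested, 24.1% were called higher and 26.9% lower, and of the members 20% and 44.4%. The IMQ and control libraries did not overlap for 11 members that were higher and 21 that were lower, against 34.1% and 36% of all genes. The median log2 fold change was -0.51 over the members and -0.06 over all genes. Members that rose were the keratinocyte laminin chains Lama3 and Lamb3, the scarce Lama1, alpha6 beta4, Itgb8 and 3 leukocyte integrins. Members that fell were the stromal and vascular laminin chains, most integrins of mesenchymal and vascular cells, the epithelial integrin Itga2, both nidogens, perlecan, and the Fraser proteins Fras1 and Frem1.

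Between the LYS and IMQ groups 0 of 45 members were called, and 0% of the 15460 genes tested were called in either direction. The smallest adjusted p among all genes was 0.0591. At an unadjusted p under 0.05, 26 of the 45 members were above the IMQ group and 3 below it. Of the 15460 genes 19.3% were above it, and 5435 passed in either direction. The libraries did not overlap for 23 members higher and 4 lower, against 16.8% and 22.1% of all genes. DESeq2 called 21 members higher and 3 lower, against 12.3% and 8.79% of all genes. edgeR called 17 and 2 with no filter on low counts (5.3% and 3.53% of all genes), and 18 and 3 when all 9 libraries shared a fit (9.93% and 8.62%). It called 13 higher and 1 lower without IMQ 1 (6.8% and 5.03% of all genes), 19 and 3 without LYS 1 (14.9% and 11.9%), and 0 without any other library. With RLE size factors, library totals alone or the replicate number as a block, edgeR called 0. The 5 settings that gave any call were DESeq2, no filter on low counts, all 9 libraries, without IMQ 1 and without LYS 1. They are grouped because they gave calls, so agreement among them does not test stability. The members called higher in each of these 5 were Lama4, Lamb1, Lamc1, Itgb1, Itgb3, Itga4, Itga5, Itga9, Itgal, Nid2 and Hspg2. Lama1 was called lower in each of them. Another 20 members were called in none of them. Without LYS 1 the members called higher also included Lama2, Lamb2, Itga1, Itga7, Itga11, Itgam, Itgb2 and Nid1, and Frem2 and Itgb8 were called lower.

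Between the LYS and control groups 44 members could be tested, of which 10 were called higher and 6 lower. Of all 16003 genes tested, 15.1% were called higher and 12.9% lower, and of the members 22.7% and 13.6%. Libraries did not overlap for 13 members higher and 12 lower, against 25% and 25.3% of all genes. The median over the members was 0.048 and that over all genes -0.01. The members higher than in the control group included 5 leukocyte integrins, and those lower included no integrin. Without control 1 the counts were 4 and 4, without control 2 they were 7 and 4, without LYS 1 14 and 6, without LYS 2 8 and 4, and without LYS 3 10 and 10.

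**Figure D1:**
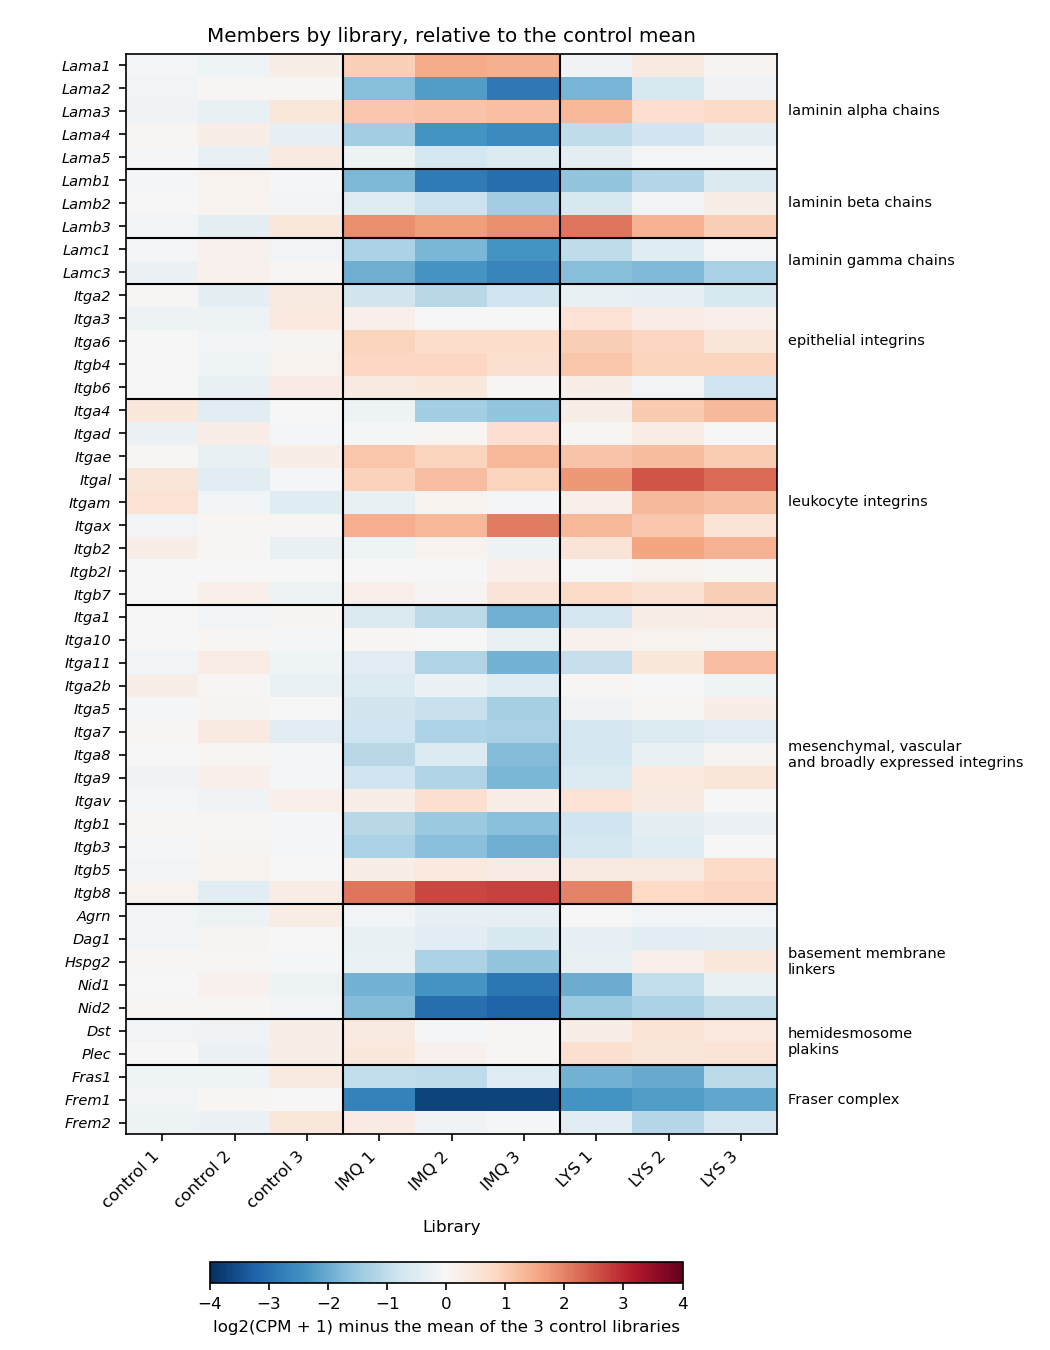
All 47 members (rows, by class) in the 9 libraries (columns), as log2(CPM + 1) minus the mean of the control libraries. Stromal chains and linkers such as Lamb1 and Nid2 are blue in all IMQ libraries and paler in the LYS libraries, Lamb3 and Itgb8 are red in both treated groups, and Itgal is darkest red in LYS 2 and LYS 3.

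Lama3 and Lamb3, chains of the epidermal laminin of hemidesmosomes, rose in the IMQ group. Lamb3 had 16.7, 14.1 and 25.4 CPM in control libraries, 68.9, 60.3 and 67.8 in IMQ libraries and 82.99, 49.04 and 37.3 in LYS libraries. Every treated library lay above every control library (log2 fold change 1.80, SE 0.22, adjusted p = 0.000272 in the IMQ group; log2 fold change 1.60, SE 0.34, adjusted p = 0.012 in the LYS group). Between the LYS and IMQ groups its log2 fold change was -0.16 (adjusted p = 0.685), and the libraries overlapped, with LYS 1 highest of all. Against the control group the LYS value was 1.49 (adjusted p = 0.0559) without control 1.

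Lama3, the alpha chain of that laminin, had 20.1, 17.8 and 30.8 CPM in control libraries, 48.3, 50.1 and 53.01 in IMQ libraries and 57.001, 35.98 and 38.6 in LYS libraries. The control and treated libraries did not overlap (log2 fold change 1.13, SE 0.21, adjusted p = 0.00196 for IMQ; log2 fold change 0.94, SE 0.27, adjusted p = 0.0312 for LYS). The LYS call was lost with 0.83 (adjusted p = 0.115) without control 1 and 0.77 (adjusted p = 0.102) without control 2, and at 0.78 (adjusted p = 0.0564) when scaled by library totals alone. Between the LYS and IMQ groups its log2 fold change was -0.14 (adjusted p = 0.592), with LYS 1 highest and the other LYS libraries below all IMQ libraries.

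Laminins with an alpha2, alpha4 or alpha5 chain lie around muscle, nerve and vessels and, for alpha5, also under the epidermis. Of the widely used Lamb1 and Lamc1, both fell in the IMQ group. Lamb1 had 233, 271 and 231 CPM in control libraries, 69.4, 33.6 and 29.03 in IMQ libraries and 81.3, 108 and 162 in LYS libraries. Control libraries were highest and IMQ libraries lowest, with no overlap between any groups, and IMQ against control gave a log2 fold change of -2.48 (SE 0.32, adjusted p = 0.000377). LYS stood 1.48 above IMQ on the log2 scale (adjusted p = 0.0654; 1.97 (adjusted p = 0.0409) without IMQ 1 and 1.69 (adjusted p = 0.0237) without LYS 1) and below control (log2 fold change -1.07, SE 0.24, adjusted p = 0.015). The latter call was lost with -1.01 (adjusted p = 0.0627) without LYS 2, -1.11 (adjusted p = 0.0583) without control 1 and -0.995 (adjusted p = 0.0663) without control 2.

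Lamc1 had 425, 497 and 409.9 CPM in control libraries, 182, 124 and 83.1 in IMQ libraries and 219, 315 and 427 in LYS libraries. It fell in the IMQ group (log2 fold change -1.78, SE 0.27, adjusted p = 0.000809), and the LYS libraries did not overlap the IMQ libraries but were not called (log2 fold change 1.38, SE 0.36, adjusted p = 0.0633). The call was made with 1.71 (adjusted p = 0.0438) without IMQ 1 and 1.59 (adjusted p = 0.0172) without LYS 1. Against the control group the LYS value was -0.47 (adjusted p = 0.173), and -0.72 (adjusted p = 0.0353) without LYS 3.

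Lama4, the laminin alpha chain of vessels and fat, had 175, 199 and 131 CPM in control libraries, 62.3, 30.6 and 27.8 in IMQ libraries and 80.8, 96.95 and 127 in LYS libraries. It fell in the IMQ group (log2 fold change -2.06, SE 0.32, adjusted p = 0.000901) and stood 1.40 below the LYS group on the log2 scale (adjusted p = 0.061), without overlap. The LYS group was called lower than the control group (log2 fold change -0.72, SE 0.22, adjusted p = 0.0387), a call lost with -0.57 (adjusted p = 0.0669) without LYS 1, -0.68 (adjusted p = 0.123) without LYS 2, -0.70 (adjusted p = 0.127) without control 1 and -0.59 (adjusted p = 0.139) without control 2, and at -0.72 (adjusted p = 0.0973) when all 9 libraries shared a fit. Lama2, that of muscle and nerve, had 146, 164 and 163 CPM in control libraries, 47.3, 32.7 and 20.7 in IMQ libraries and 42.5, 101 and 142 in LYS libraries. Its fall in the IMQ group was called (log2 fold change -2.24, SE 0.27, adjusted p = 0.000265), while the LYS group overlapped the IMQ group through LYS 1 (log2 fold change 1.58, adjusted p = 0.0766) and was called above it with 1.93 (adjusted p = 0.0117) without LYS 1.

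Lama5, an alpha chain of epidermal and vascular basement membranes, had 89.4, 74.9 and 119 CPM in control libraries, 80.9, 56.1 and 63.1 in IMQ libraries and 71.1, 88.8 and 87.2 in LYS libraries. Its libraries overlapped in every comparison, and IMQ against control gave -0.51 (adjusted p = 0.0619), past neither threshold. It was called lower at -0.65 (adjusted p = 0.0184) without IMQ 1 and -0.65 (adjusted p = 0.0335) without control 2, and at -0.95 (adjusted p = 0.0101) when scaled by library totals alone. Lamb2, a beta chain of vascular and muscle basement membranes, fell in the IMQ group (log2 fold change -0.87, SE 0.22, adjusted p = 0.00872) from 157 ± 15.5 to 85.9 ± 26.05 CPM (SD, n = 3). Its LYS mean was 143 ± 43.4 CPM, which was called in neither comparison, except against IMQ at 1.02 (adjusted p = 0.0326) without LYS 1.

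Against control, Lama1 and Lamc3 had the largest differences of the alpha chains (in the IMQ group) and of the gamma chains described here. Lamc3, a gamma chain of several basement membranes, had 32.8, 43.2 and 40.03 CPM in control libraries, 9.24, 6.71 and 5.28 in IMQ libraries and 11.04, 10.6 and 14.9 in LYS libraries. Both treated groups lay below all control libraries (log2 fold change -2.45, SE 0.22, adjusted p = 7.4e-05 for IMQ; log2 fold change -1.66, SE 0.19, adjusted p = 0.00124 for LYS), and LYS stood 0.85 above IMQ (adjusted p = 0.0829). Lama1, the alpha chain of the earliest embryonic laminin, was near the limit of detection, with 3, 1 and 8 counts in the control libraries, 21, 31 and 30 in the IMQ libraries and 1, 9 and 5 in the LYS libraries. It rose in the IMQ group (log2 fold change 3.26, SE 0.60, adjusted p = 0.00202) and was -2.59 in LYS against IMQ (adjusted p = 0.0591). Too few counts were left for a test of LYS against control.

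Markers of fibroblasts, endothelium, smooth and skeletal muscle, fat and nerve sheath were counted beside the stromal laminins. Of all genes tested, 26.9% were called lower in IMQ against control and 12.9% in LYS against control. In the IMQ group 8 of 8 fibroblast, 6 of 8 endothelial, 3 of 7 tested smooth muscle and 6 of 8 skeletal muscle markers fell, and in LYS against control 4, 0, 1 and 3 were called lower, with the pericyte marker Pdgfrb and the muscle gene Ttn called higher (0.82 and 1.56). The summed CPM of the 8 fibroblast markers was 22240 to 28340 in control libraries, 3383 to 10733 in IMQ libraries and 9239 to 17961 in LYS libraries. For the 8 endothelial markers these ranges were 454 to 647, 191 to 386 and 389 to 702. For the 8 markers of smooth muscle and pericytes they were 597 to 700.1, 180 to 418 and 414 to 719, and for the 8 of skeletal muscle 9424 to 10387, 1984 to 4881 and 4511 to 9630.1. Of the 6 adipocyte markers 6 fell in the IMQ group and 6 were called lower in LYS against control, with sums of 2732 to 7833 CPM in control libraries, 279.9 to 891 in IMQ libraries and 913 to 2163 in LYS libraries. Of the 8 Schwann cell markers 5 fell and Erbb3 rose (2.11) in the IMQ group and 0 were called in LYS against control, with sums of 473 to 518, 475 to 659 and 385 to 555 CPM. The 5 basal keratinocyte markers went the other way, with 2099 to 3210 CPM, 12086 to 13525 and 7865 to 14186, although Krt15 among them fell (log2 fold change -0.78 for IMQ against control). The part of these cell types in the laminin values was not tested. In whole skin, fewer cells of a type and less RNA per cell cannot be told apart.

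**Figure D2:**
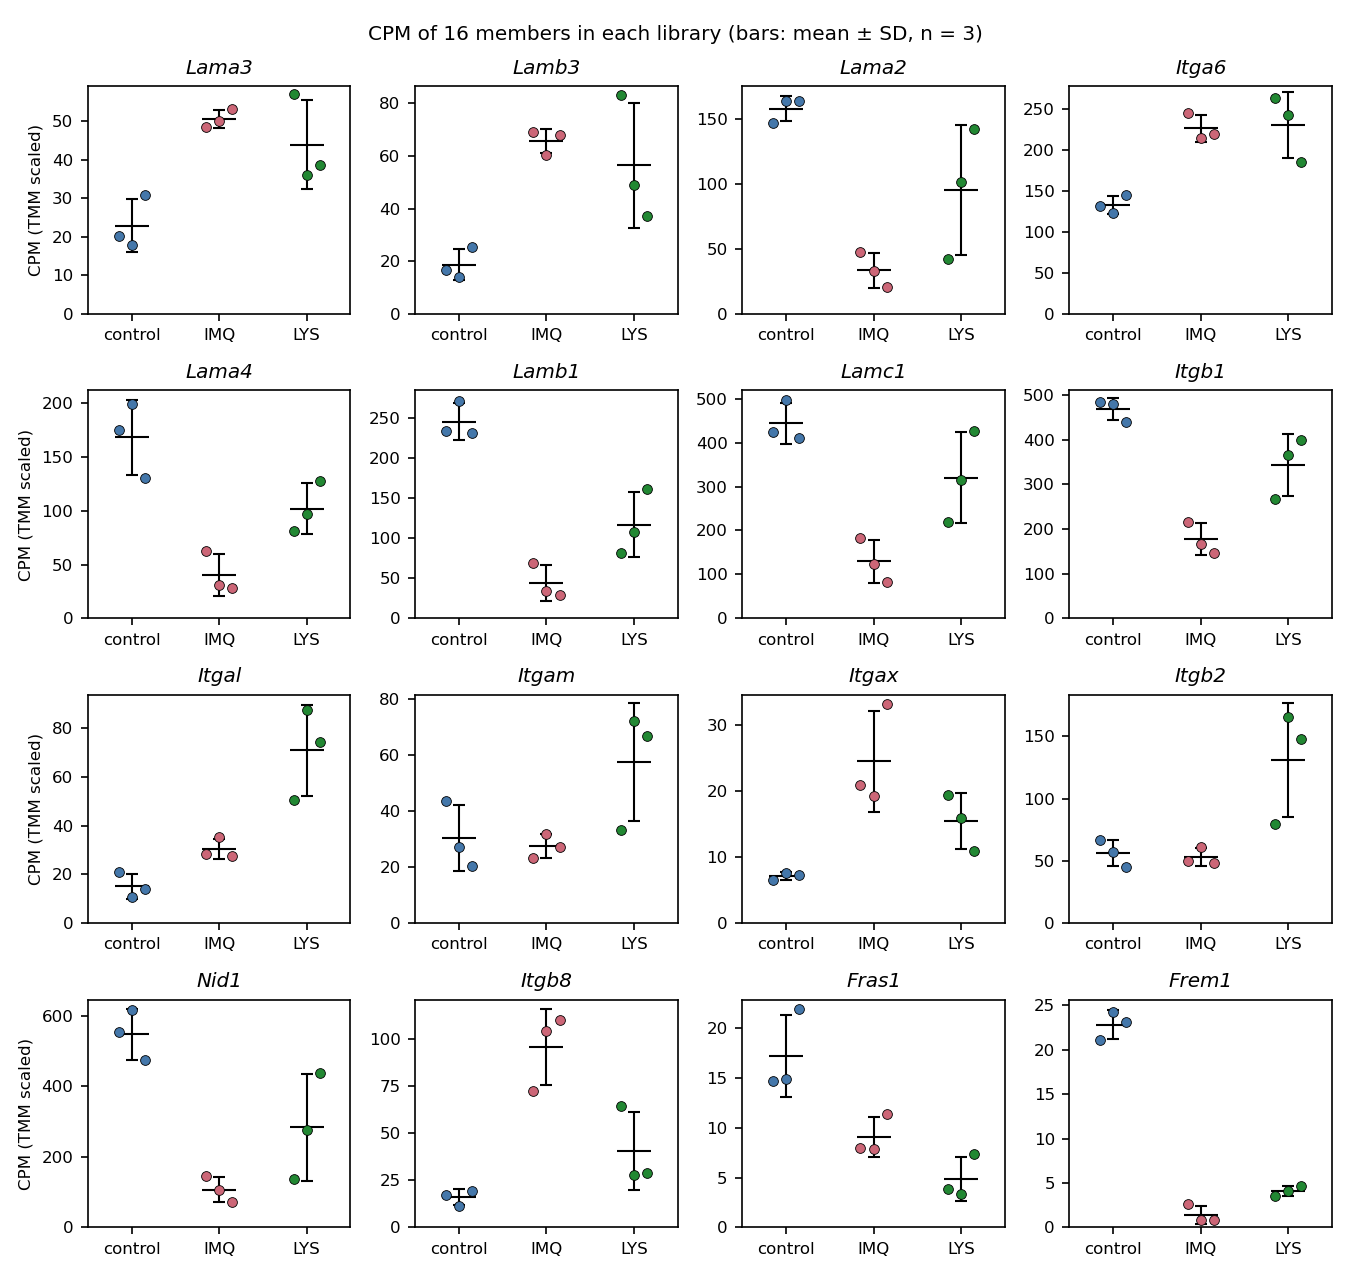
CPM of 16 members in each library, with the group and library on the x axis, points for libraries and bars for the mean ± SD (n = 3). Lamb3, Lama3 and Itga6 are higher in both treated groups, Lama4, Lamb1, Lamc1, Itgb1 and Nid1 are lowest on average in the IMQ group, and Itgal, Itgam and Itgb2 are highest in LYS 2 and LYS 3.

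Since Lamb1 and Lamb3 take the same place in their trimers and went in opposite directions, their promoter sequences are shown. They are the 250 bases before the RefSeq start on build GRCm38.p6, 5′ to 3′ on the plus strand. Capitals mark matches on either strand to the GC box, GGGCGG, or to GAGGAA, the core letters of sites bound by the myeloid factor PU.1. The AP-1 letters TGANTCA were searched as well. The last motif searched was the TATA box, spelled TATAAA.
Lamb1 chr12:31265043-31265292: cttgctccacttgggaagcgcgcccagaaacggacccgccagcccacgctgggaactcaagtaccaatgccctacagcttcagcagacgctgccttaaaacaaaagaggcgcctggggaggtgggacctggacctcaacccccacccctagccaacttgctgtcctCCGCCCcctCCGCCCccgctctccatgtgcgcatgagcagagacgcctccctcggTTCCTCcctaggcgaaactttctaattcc
Lamb3 chr1:193301744-193301993: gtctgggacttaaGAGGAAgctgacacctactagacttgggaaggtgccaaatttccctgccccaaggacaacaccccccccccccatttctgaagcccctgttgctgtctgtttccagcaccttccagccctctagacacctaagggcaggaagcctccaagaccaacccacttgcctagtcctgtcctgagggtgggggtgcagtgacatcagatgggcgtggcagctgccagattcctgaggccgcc
The Lamb1 window held 2 GC boxes and 1 PU.1 core, and that of Lamb3, the first of 2 RefSeq starts and 94295 bases past the start of the GENCODE gene, held 1 PU.1 core. Among 32851 mouse promoters of the same length, 32.7% held a GC box, 23.3% a PU.1 core, 6.75% an AP-1 site and 12.4% a TATA box. RefSeq windows were at hand for 31 of the 47 members, of which 13 held a GC box, 15 a PU.1 core, 1 an AP-1 site and 0 a TATA box. A match is a run of letters and not a measured site.

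Of the epithelial integrins, Itga6 and Itgb4, the hemidesmosomal receptor pair for the epidermal laminin, rose in both treated groups, Itga2 fell in the IMQ group, and Itga3 and Itgb6 were not called. Itga6 (chromosome 2, 71745616 to 71858416, GRCm38) had 132, 123 and 145 CPM in control libraries, 246, 215 and 219.6 in IMQ libraries and 263, 243 and 185 in LYS libraries. Itgb4 (chromosome 11, 115974709 to 116008412) had 68.3, 60.9 and 75.9 CPM in control libraries, 121, 121 and 108 in IMQ libraries and 146, 128 and 126 in LYS libraries. No treated library of either gene reached down to the control libraries.

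For IMQ against control the log2 fold change was 0.76 for Itga6 (SE 0.13, adjusted p = 0.00122) and 0.76 for Itgb4 (SE 0.12, adjusted p = 0.00106). Scaled by library totals alone the values were 0.31 (adjusted p = 0.105) and 0.31 (adjusted p = 0.0958), where the median of all genes was -0.51 and not -0.06. For LYS against control they were 0.80 (adjusted p = 0.0126) and 0.97 (adjusted p = 0.00292). The Itga6 call was lost there with 0.76 (adjusted p = 0.0501) without LYS 2 and 0.77 (adjusted p = 0.0536) without control 1. LYS and IMQ differed by 0.085 for Itga6 and 0.26 for Itgb4 (adjusted p = 0.724 and 0.158).

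Itga3, which pairs with beta1 as another receptor of that laminin, had 38.3, 37.8 and 58.4 CPM in control libraries, 50.2, 43.7 and 43.8 in IMQ libraries and 66.6, 54.5 and 50.3 in LYS libraries. Its log2 fold changes were 0.026, 0.38 and 0.36 for IMQ against control, LYS against IMQ and LYS against control, the order kept below, with adjusted p of 0.914, 0.101 and 0.227. Itgb6, the chain of the TGF-beta activating alphav beta6, had 14.5, 11.7 and 18.9 CPM in control libraries, 19.5, 20.3 and 15.5 in IMQ libraries and 18.02, 13.6 and 8.04 in LYS libraries, with 0.29, -0.43 and -0.18 and no call. Itga2, the alpha chain of a collagen receptor of basal keratinocytes and platelets, had 16.3, 11.7 and 20.2 CPM in control libraries, 8.94, 6.71 and 8.58 in IMQ libraries and 12.6, 12.2 and 9.82 in LYS libraries. It fell in the IMQ group (log2 fold change -0.99, SE 0.24, adjusted p = 0.00742), and LYS differed from IMQ by 0.58 (adjusted p = 0.0948) and from control by -0.47 (adjusted p = 0.161).

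Of the 9 leukocyte integrins, Itga4, Itgae, Itgal, Itgam, Itgb2 and Itgb7 had their highest mean in the LYS group, as did Itgb2l, which was near 0 throughout. In the IMQ group Itgae, Itgal and Itgax rose and 0 of 7 tested fell, where 24.1% of all genes rose and 26.9% fell. In the LYS group Itgae, Itgal, Itgax, Itgb2 and Itgb7 were called higher than in control libraries, 5 of 7 tested, against 15.1% of all genes. Between the LYS and IMQ groups 5 of 7 did not overlap, with LYS higher, and 16.8% of all genes did so. The class summed to 120.4 to 176 CPM in the control group, 166 to 181 in IMQ libraries and 239 to 410.8 in LYS libraries.

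Itgal, the alpha chain of LFA-1 of T cells and other leukocytes, had 20.7, 10.5 and 13.9 CPM in control libraries, 28.5, 35.3 and 27.5 in IMQ libraries and 50.6, 87.7 and 74.4 in LYS libraries. Each group was separate from the others. It rose in the IMQ group (log2 fold change 1.01, SE 0.24, adjusted p = 0.00722) and was further from the control group in the LYS group (log2 fold change 2.24, SE 0.29, adjusted p = 0.00209). Scaled by library totals alone, the IMQ value was 0.55 (adjusted p = 0.0826) and not called. Between LYS and IMQ it was 1.29 (SE 0.22, adjusted p = 0.0591).

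Itgb2, the beta chain shared by Itgal, Itgam, Itgax and Itgad, had 66.5, 57.1 and 45.01 CPM in control libraries, 49.7, 61.2 and 48.5 in IMQ libraries and 79.2, 166 and 148 in LYS libraries. The IMQ libraries lay within the range of the control libraries (log2 fold change -0.089, adjusted p = 0.648), and all LYS libraries lay above both. It was called higher in the LYS group than in the control group (log2 fold change 1.22, SE 0.28, adjusted p = 0.0149), and LYS against IMQ gave 1.37 (adjusted p = 0.0591), called at 1.64 (adjusted p = 0.00551) without LYS 1. The call against the control group was lost with 1.02 (adjusted p = 0.0542) without LYS 2, 1.23 (adjusted p = 0.0653) without control 2 and 1.08 (adjusted p = 0.0547) without control 3.

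Itgam, the alpha chain of Mac-1 of neutrophils and macrophages, had 43.3, 26.9 and 20.4 CPM in control libraries, 23.2, 31.7 and 27.1 in IMQ libraries and 33.3, 72.1 and 66.6 in LYS libraries. LYS 1 lay inside the control range and the other LYS libraries above it. Its log2 fold changes of -0.15, 1.14 and 0.93 were not called (adjusted p = 0.632, 0.0641 and 0.0792) with all libraries in edgeR's filtered fits of 2 groups. The last was called without LYS 1 (1.21, adjusted p = 0.0143) and by DESeq2. LYS against IMQ was called without LYS 1 (1.42, adjusted p = 0.00584), by DESeq2, with no filter on low counts and when all 9 libraries shared a fit. Gm49368 covers 68.7% of the Itgam exons on the same strand and had 2 counts over the 9 libraries against 5984 for Itgam.

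Itgax, the CD11c chain of dendritic cells and some macrophages, had 6.43, 7.49 and 7.31 CPM in control libraries, 20.9, 19.2 and 33.1 in IMQ libraries and 19.3, 15.9 and 10.9 in LYS libraries. It rose in the IMQ group (log2 fold change 1.78, SE 0.23, adjusted p = 0.000399), and the LYS group was also above the control group (log2 fold change 1.12, SE 0.24, adjusted p = 0.0116), but at 1.04 (adjusted p = 0.0517) without control 1. Unlike that of Itgal and Itgam, its highest library was IMQ 3, and LYS against IMQ gave -0.61 (adjusted p = 0.165). Itgad, the last of these chains, had 1 to 13 counts in a library and was not tested.

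Itgae (CD103) and Itgb7 pair on T cells and dendritic cells of epithelia and bind E-cadherin. Itgae had 8.51, 6.48 and 9.95 CPM in control libraries, 18.8, 16.02 and 22.1 in IMQ libraries and 19.4, 20.99 and 17.7 in LYS libraries. Both treated groups were above all control libraries (log2 fold change 1.18, SE 0.21, adjusted p = 0.00176 for IMQ; log2 fold change 1.22, SE 0.20, adjusted p = 0.00441 for LYS), and differed from each other by 0.092 (adjusted p = 0.715). Itgb7 had 11.7, 13.5 and 9.996 CPM in control libraries, 13.4, 12.7 and 17.1 in IMQ libraries and 20.6, 18.3 and 23.8 in LYS libraries. It was called only in LYS against control (log2 fold change 0.84, SE 0.18, adjusted p = 0.0119), but not without control 1 (0.82, adjusted p = 0.0571).

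Itga4, the alpha chain of VLA-4 that binds VCAM-1 and fibronectin, had 18.8, 9.85 and 13.7 CPM in control libraries, 11.7, 4.70 and 3.89 in IMQ libraries and 16.3, 29.1 and 34.8 in LYS libraries. IMQ 2 and IMQ 3 lay below all control libraries and all LYS libraries above all IMQ libraries. Its difference between LYS and IMQ, 2.04 (SE 0.49, adjusted p = 0.0605), was the largest of the leukocyte integrins. Against control it was -1.05 in the IMQ group (adjusted p = 0.063) and 0.93 in the LYS group (adjusted p = 0.0627). With all libraries it was called lower in the IMQ group by DESeq2, with no filter at -1.07 (adjusted p = 0.0216), with the replicate block and with library totals alone, and also without IMQ 1 (-1.71, adjusted p = 0.00174). In the LYS group it was called higher than control by DESeq2, with no filter at 0.91 (adjusted p = 0.047) and without LYS 1 (1.19, adjusted p = 0.0109). Itgb2l, a gene related to Itgb2, had 0 to 2 counts in a library and was not tested.

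Leukocyte markers are given beside these chains, of which Itgb2, Itgb7, Itgam and Itga4 were not called in the IMQ group. Of all genes tested, 24.1% were called higher in IMQ against control and 15.1% in LYS against control. Of the 6 pan-leukocyte markers 4 rose in the IMQ group and 5 were called above control in the LYS group, and of the 6 T cell markers 4 and 4, with Lck lower in the IMQ group (-1.05). The 6 pan-leukocyte markers summed to 376 to 561 CPM in control libraries, 588 to 847 in IMQ libraries and 944 to 1263 in LYS libraries. The 6 T cell markers gave 10.8 to 12.7, 13.1 to 18.4 and 22.0 to 30.1, and the 7 of macrophages and dendritic cells 653 to 957, 714 to 1081 and 994 to 1657. The latter list was mixed in IMQ against control, with 3 values above 0 and 4 below, of which 2 were called higher and 1 lower. In LYS against control 1 of the 7 was called higher and 0 lower. The 6 neutrophil markers were instead highest on average in the IMQ group, with 57.3 to 69.1, 253 to 689 and 196 to 445. None of these lists contains an integrin, no marker on them was at 0 in a whole group, and their part in the integrin values was not tested.

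Itgal, Itgam, Itgax and Itgad lie in a row on chromosome 7 (GRCm38), Itgal at 127296260 to 127335138, Itgam at 128062640 to 128118491, Itgax at 128129547 to 128150657 and Itgad at 128154376 to 128223816. Of these neighbours with unlike values, the 250 bases before the RefSeq start are shown for Itgam and Itgax, on the plus strand of GRCm38.p6. Capitals mark matches to GC box, PU.1 core and AP-1 letters.
Itgam chr7:128062390-128062639: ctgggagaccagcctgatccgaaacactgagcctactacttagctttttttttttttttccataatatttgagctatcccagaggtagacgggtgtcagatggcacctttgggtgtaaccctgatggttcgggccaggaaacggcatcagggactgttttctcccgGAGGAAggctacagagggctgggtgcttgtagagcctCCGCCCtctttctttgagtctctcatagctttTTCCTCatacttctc
Itgax chr7:128129300-128129549: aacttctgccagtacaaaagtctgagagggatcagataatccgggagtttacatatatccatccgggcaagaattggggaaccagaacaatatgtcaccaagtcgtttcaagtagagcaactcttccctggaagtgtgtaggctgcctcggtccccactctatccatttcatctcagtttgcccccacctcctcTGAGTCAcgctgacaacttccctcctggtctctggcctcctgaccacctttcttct
The Itgam window held 2 PU.1 cores and 1 GC box and no AP-1 letters. The Itgax window held the only AP-1 match among the 31 members searched, and no PU.1 core or GC box.

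**Figure D3:**
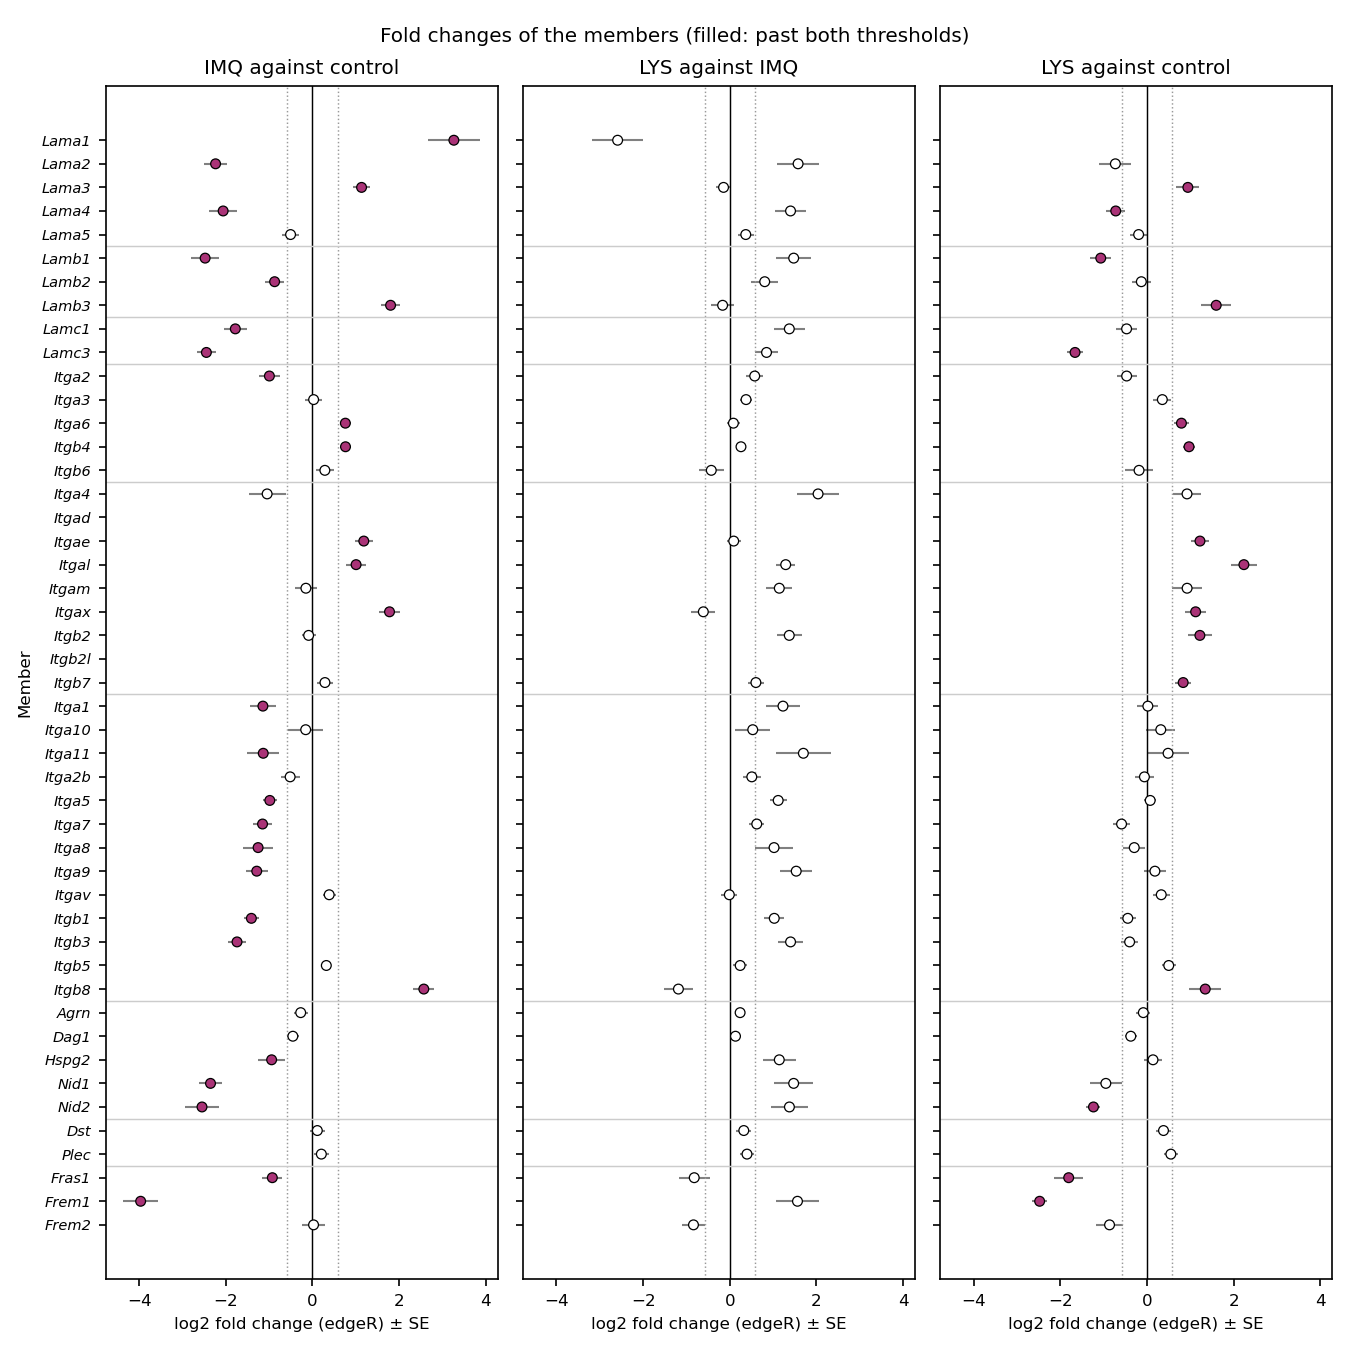
Log2 fold change (edgeR, x axis) ± SE of each tested member (y axis, by class) in the 3 comparisons, with filled points for members past both thresholds. In the left panel the filled points of stromal laminins, mesenchymal integrins and linkers lie below 0 and those of Lama3, Lamb3, Itga6, Itgb4 and Itgb8 above it, and the panel of LYS against IMQ has no filled point.

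The 13 integrins of mesenchymal, vascular and many other cells held 8 of the 9 integrin chains that fell in the IMQ group and 1 that rose. In this class 61.5% fell and 7.69% rose, against 26.9% and 24.1% of all genes. Itgb1, which pairs with most alpha chains and was the most abundant member per length of gene in every group, had 483, 481 and 439.9 CPM in control libraries, 216, 167 and 147 in IMQ libraries and 267, 365 and 399.6 in LYS libraries. The IMQ libraries were lowest and separate from both other groups (log2 fold change -1.41, SE 0.17, adjusted p = 0.000277; LYS against IMQ 1.03, adjusted p = 0.0591). LYS against control gave -0.44 (adjusted p = 0.0986). Its mean level was 131 ± 3.36 FPKM in control libraries, 36.6 ± 10.4 in IMQ libraries and 88.6 ± 22.4 in LYS libraries (SD, n = 3). FPKM is scaled by library totals without TMM factors, so these means are not on the scale of the log2 fold changes.

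The others that fell were Itga1, Itga5, Itga7, Itga8, Itga9, Itga11 and Itgb3, with log2 fold changes from -1.74 (Itgb3, the beta chain of vessels, osteoclasts and platelets) to -0.99 (Itga5, the fibronectin receptor). Among them are receptors for collagen (Itga1), nephronectin (Itga8) and tenascin-C (Itga9). In LYS against IMQ these 7 had values of 0.62 (Itga7, the laminin receptor of muscle) to 1.70 (Itga11, a fibroblast collagen receptor), and none was called. In LYS against control they lay between -0.59 and 0.49, again with no call. There Itga7 was called lower by DESeq2, with no filter, with library totals alone, when all 9 libraries shared a fit and without control 3 (-0.77, adjusted p = 0.0201), Itgb3 was called lower without LYS 3 (-0.62, adjusted p = 0.0276), and Itga11 higher without LYS 1 (0.90, adjusted p = 0.0319). Itga11, with the largest difference between LYS and IMQ in its class, had 17.02, 22.5 and 16.04 CPM in control libraries, 13.6, 7.38 and 4.25 in IMQ libraries and 9.15, 24.7 and 44.02 in LYS libraries. LYS 1 lay among the IMQ libraries, and LYS 2 and LYS 3 lay above all control libraries. The fall in the IMQ group (log2 fold change -1.14, SE 0.37, adjusted p = 0.0284) was lost with -1.04 (adjusted p = 0.0908) without IMQ 2, -1.21 (adjusted p = 0.0578) without control 1 and -0.98 (adjusted p = 0.0914) without control 2, and at -1.13 (adjusted p = 0.0952) when all 9 libraries shared a fit.

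Itgb8, whose pairing with alphav activates TGF-beta, went the other way from the 8 members of its class that fell. It had 17.3, 11.3 and 19.4 CPM in control libraries, 72.7, 104 and 110.1 in IMQ libraries and 64.3, 27.9 and 29.2 in LYS libraries. All 3 groups were separate, with IMQ highest. The rise in the IMQ group was the largest of any integrin (log2 fold change 2.57, SE 0.24, adjusted p = 7.8e-05). LYS stood above control (log2 fold change 1.35, SE 0.37, adjusted p = 0.0286) and differed from IMQ by -1.18 (adjusted p = 0.0695), a value called by DESeq2 and, at -1.66 (adjusted p = 0.00698) without LYS 1, by edgeR. The call of LYS against control was lost with 1.37 (adjusted p = 0.0848) without control 1, 1.12 (adjusted p = 0.0942) without control 2 and 1.51 (adjusted p = 0.0539) without control 3.

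Itgav, the partner of Itgb8, Itgb6 and Itgb5, was not called, at 0.39, -0.00901 and 0.33. Itgb5 passed the adjusted p but not the size in the IMQ group (log2 fold change 0.32, SE 0.11, adjusted p = 0.0382), and was called against control in the LYS group only without LYS 1 (0.58, adjusted p = 0.0247). Itga2b, the platelet chain, gave -0.52 for IMQ against control (adjusted p = 0.0749) and was called lower without control 3 (-0.65, adjusted p = 0.0479) and with library totals alone. The 5 platelet markers in the table summed to 36.5 to 64.0 CPM in control libraries, 12.02 to 24.1 in IMQ libraries and 35.1 to 58.4 in LYS libraries. Itga10, a cartilage collagen receptor with 112 counts over the 9 libraries, gave -0.16, 0.53 and 0.32 with no call, and 33.5% of its exon length overlaps Gm42957.

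Of the basement membrane linkers Nid1, Nid2 and Hspg2 fell in the IMQ group. Nid1, which bridges laminin and collagen IV, had 552, 616 and 473 CPM in control libraries, 145, 105 and 72.6 in IMQ libraries and 137, 276 and 438 in LYS libraries. Nid2, the second nidogen, had 108, 112 and 97.4 CPM in control libraries, 31.3, 12.2 and 10.5 in IMQ libraries and 37.02, 43.2 and 54.5 in LYS libraries. In both, control libraries were highest and IMQ 2 and IMQ 3 lowest, and IMQ 1 and LYS 1 lay close together.

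IMQ against control gave -2.35 for Nid1 (SE 0.26, adjusted p = 0.000165) and -2.55 for Nid2 (SE 0.38, adjusted p = 0.00078). LYS against IMQ gave 1.48 and 1.38 (adjusted p = 0.077 and 0.0789), and Nid1 was called at 1.81 (adjusted p = 0.0125) without LYS 1 and Nid2 at 2.05 (adjusted p = 0.0406) without IMQ 1 and 1.51 (adjusted p = 0.0495) without LYS 1. Against control, LYS was called lower for Nid2 (log2 fold change -1.23, SE 0.16, adjusted p = 0.00205) and not for Nid1 (-0.95, adjusted p = 0.0878), which was called without LYS 3 (-1.40, adjusted p = 0.0135) and by DESeq2. The difference between the nidogens was not tested beyond their ratio, given below.

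Hspg2, the heparan sulfate proteoglycan perlecan, gave -0.94 for IMQ against control (adjusted p = 0.0307), 1.14 for LYS against IMQ (adjusted p = 0.0874) and 0.14 for LYS against control. Its IMQ call was lost with -0.79 (adjusted p = 0.108) without IMQ 2, -0.69 (adjusted p = 0.074) without IMQ 3, -0.94 (adjusted p = 0.0753) without control 1, -0.93 (adjusted p = 0.0707) without control 2 and -0.97 (adjusted p = 0.0581) without control 3. Dag1, the laminin receptor dystroglycan, passed the adjusted p but not the size in the IMQ group (log2 fold change -0.45, SE 0.14, adjusted p = 0.0206). Agrn, a proteoglycan of nerve-muscle contacts and epidermis, gave -0.27, 0.24 and -0.084 with no call. With library totals alone both were called lower in the IMQ group.

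The plakins, which hold keratin filaments to the hemidesmosome, were not called in any comparison. Counts are per gene in whole skin, so transcripts of keratinocytes and of other cells were not told apart for either plakin. Plec had 270.5, 227 and 314 CPM in control libraries, 363, 302 and 275 in IMQ libraries and 419, 377 and 390.4 in LYS libraries. Dst had 192, 189.8 and 251 CPM in control libraries, 272, 197 and 219 in IMQ libraries and 245, 305 and 274 in LYS libraries. Plec passed the adjusted p but not the size in LYS against control (log2 fold change 0.55, SE 0.17, adjusted p = 0.0394), and was called there at 0.67 (adjusted p = 0.0435) without control 3. IMQ against control gave 0.20 for Plec and 0.11 for Dst (adjusted p = 0.328 and 0.607).

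The Fraser complex of Fras1, Frem1 and Frem2 joins epidermis to dermis below the dense sheet of the basement membrane. Frem1, made by dermal cells, had 21.04, 24.3 and 23.1 CPM in control libraries, 2.61, 0.82 and 0.807 in IMQ libraries and 3.49, 4.07 and 4.65 in LYS libraries. It showed the largest fall of all members in the IMQ group (log2 fold change -3.97, SE 0.40, adjusted p = 0.000112), and the LYS group lay between the others without overlap, below control (log2 fold change -2.48, SE 0.17, adjusted p = 0.000234) and at 1.56 against IMQ (adjusted p = 0.0822). Leaving out any single library kept both calls against control.

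Fras1, made by epidermal cells, had 14.7, 14.8 and 21.9 CPM in control libraries, 7.96, 7.90 and 11.4 in IMQ libraries and 3.84, 3.39 and 7.40 in LYS libraries. Unlike Frem1 it was lowest in the LYS group, which did not overlap the IMQ group. It fell in the IMQ group (log2 fold change -0.93, SE 0.23, adjusted p = 0.00951) and was lower than control in the LYS group (log2 fold change -1.81, SE 0.33, adjusted p = 0.00661), while LYS against IMQ gave -0.82 (adjusted p = 0.151). Frem2 had 8.61, 8.37 and 13.99 CPM in control libraries, 12.8, 9.09 and 9.75 in IMQ libraries and 7.13, 3.96 and 5.91 in LYS libraries, with LYS below both other groups. Its log2 fold changes were 0.025, -0.84 and -0.86 (adjusted p = 0.94, 0.0859 and 0.0627), and without LYS 1 the values of -1.02 against IMQ and -1.05 against control were called lower. With all libraries Frem2 was also called below control by DESeq2, with no filter, with library totals alone and when all 9 libraries shared a fit. The 3 genes together had 44.3 to 59.0 CPM in control libraries, 17.8 to 23.3 in IMQ libraries and 11.4 to 17.97 in LYS libraries.

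Ratios of members within a library, which depend on library scaling only through the pseudocount, were compared as well. They were formed from the deposited FPKM with 0.1 added to each, 11 ratios in 3 comparisons. With 3 libraries against 3 the exact two-sided permutation p cannot go below 0.1, and after adjustment over the 33 tests it was at least 0.183, so 0 ratios passed 0.05. The groups did not overlap for 8 of 11 ratios in IMQ against control, 5 in LYS against IMQ and 5 in LYS against control. Single genes did not overlap in 34.1% (higher) and 36% (lower), 16.8% and 22.1%, and 25% and 25.3% of cases in these comparisons. Ratios of other gene pairs were not formed, so the counts of ratios are a description only. Leaving out a library can only keep or add separations. In LYS against IMQ 8 did not overlap without IMQ 1 and 8 without LYS 1, and in LYS against control 8 without control 3.

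Lamb3 to Lamb1 was 0.111, 0.0808 and 0.168 in control libraries, 1.48, 2.63 and 3.40 in IMQ libraries and 1.52, 0.685 and 0.349 in LYS libraries. The IMQ and LYS libraries lay above the control libraries, by 4.37 and 2.64 on the log2 scale of the ratio. Lama3 to Lama5 was 0.246, 0.261 and 0.281 in control libraries, 0.639, 0.948 and 0.893 in IMQ libraries and 0.852, 0.436 and 0.475 in LYS libraries. In both ratios LYS 1 lay within the IMQ range and LYS 2 and LYS 3 between the IMQ and control ranges.

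Itgb4 to Itgb1 was 0.0829, 0.0745 and 0.101 in control libraries, 0.327, 0.424 and 0.429 in IMQ libraries and 0.32, 0.205 and 0.184 in LYS libraries, with no overlap between any 2 groups. Itga6 to Itga3 was 2.14, 2.02 and 1.55 in control libraries, 3.03, 3.05 and 3.10 in IMQ libraries and 2.46, 2.77 and 2.29 in LYS libraries, also without overlap. Itgam to Itgal was 2.68, 3.21 and 1.88 in control libraries, 1.06, 1.17 and 1.28 in IMQ libraries and 0.863, 1.07 and 1.17 in LYS libraries, so that both treated groups were below the control group and overlapped each other. Itgae to Itgb7, Lama5 to Lama4 and Lama5 to Lama2 separated IMQ from both other groups, which overlapped each other. Nid1 to Nid2, Plec to Dst and Itgb6 to Itgb5 overlapped in every comparison, with Plec to Dst between 2.72 and 3.88 in all 9 libraries.

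**Figure D4:**
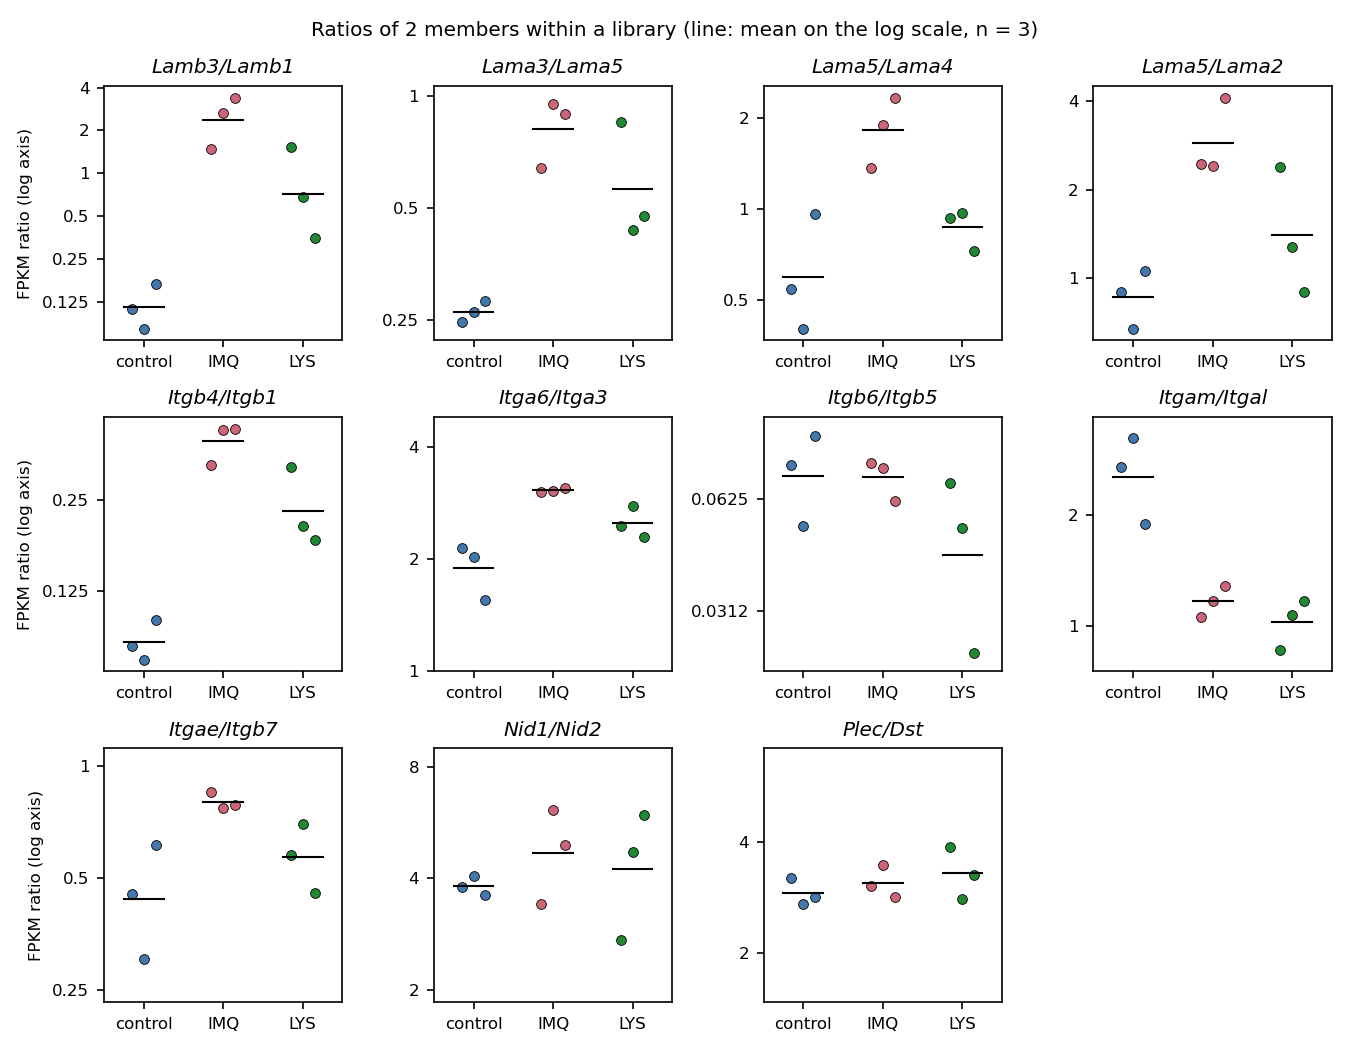
Ratios of 2 members within a library, from FPKM, on log axes, with points for libraries and lines for the mean on the log scale (n = 3). Lamb3 to Lamb1 and Itgb4 to Itgb1 are lowest in the control group and highest in the IMQ group on average, while Plec to Dst and Nid1 to Nid2 overlap across all groups.

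Per length of gene, Itgb1, Nid1, Lamc1 and Dag1 led the members in the control group, at 131 ± 3.36, 89.99 ± 8.16, 61.4 ± 4.27 and 55.1 ± 3.96 FPKM (SD, n = 3). In the IMQ group Itgb1 was followed by Itgb5, Dag1 and Itga6, at 31.4 ± 1.59, 29.7 ± 5.28 and 20.8 ± 3.25 FPKM. In the LYS group it was followed by Itgb2, Itgb5 and Nid1, at 45.3 ± 17.4, 44.4 ± 9.74 and 43.5 ± 25.01 FPKM. The levels of these 3 in the LYS group differed by less than the SD of Itgb2 or Nid1.

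The other genes of the basement membrane and of integrin signalling were counted from lists. Beside the counts of each list stand the shares of all genes tested. In IMQ against control these were 24.1% called higher and 26.9% lower, and in LYS against control 15.1% and 12.9%. Of the basement membrane collagens, 2 of 9 tested rose in the IMQ group, near the share of all genes, and 6 fell. Those that rose were the anchoring fibril collagen Col7a1 (log2 fold change 1.67, SE 0.19, adjusted p = 0.000211) and the hemidesmosomal Col17a1 (log2 fold change 1.47, SE 0.22, adjusted p = 0.000779), and those that fell included Col15a1 (-2.54) and Col4a1 (-1.65). Against control the LYS group had Col7a1 and Col17a1 called higher (1.22 and 1.08) and Col15a1 and Col4a5 lower (-1.55 and -1.02). Col4a5 fell in the IMQ group too (-1.26).

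Of 16 other basement membrane proteins and laminin receptors, 4 rose in the IMQ group, near the share of all genes, and 10 fell. Grip1, which carries Fras1 and Frem2 to the basal cell surface, rose by 2.47 on the log2 scale and stood above control in the LYS group too (1.87). Lad1, the ladinin of anchoring filaments, rose by 1.38, and Ntn1 and Egflam fell (-2.42 and -2.09). The LYS group had 3 of them above control, with Tgfbi at 0.80, and 6 below it, with Smoc1 at -1.91 and Sparc at -1.51. In IMQ against control Tgfbi was 0.61, Smoc1 -3.63 and Sparc -2.38, all called.

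Of 25 tested integrin activators and adaptors, 4 rose and 11 fell in the IMQ group. Vasp, an actin regulator at adhesions, and the kinase Ptk2b rose (1.32 and 0.70), and kindlin-2 (Fermt2) and focal adhesion kinase (Ptk2) fell (-2.18 and -1.36). LYS against control gave 4 higher and 4 lower, near the shares of all genes. Fermt3, the kindlin of leukocytes and platelets, was 1.26 and Vasp 1.15, and Parva and Tln2 were -0.85 and -0.79. In IMQ against control Fermt3 was 0.49 and not called, and Parva and Tln2 fell (-1.53 and -1.40).

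Among 17 tested integrin ligands other than laminins, 4 rose in the IMQ group, including Thbs1 (1.74) and F11r (1.23), and 10 fell, including fibronectin (Fn1, -2.08) and Ccn1 (-2.02). The share of these ligands that rose in the IMQ group was near that of all genes. In LYS against control 5 were higher, including osteopontin (Spp1, 2.06) and the LFA-1 and Mac-1 ligand Icam1 (0.98), and only Postn was lower (-0.71). In IMQ against control Spp1 (4.15) and Postn (-2.12) were called as well, and Icam1 (0.30) was not. Of 18 genes of the dystrophin complex and the enzymes that glycosylate dystroglycan, 0 rose and 13 fell in the IMQ group, with the smallest p for Sntb1 (-1.97) and Utrn (-1.76). In the LYS group 7 were below control, with the smallest p for Sntb1 (-1.93) and Sgcd (-1.60). Sgcd was at -2.24 in IMQ against control. No gene of these lists was called between LYS and IMQ, where no gene of the table was.

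**Figure D5:**
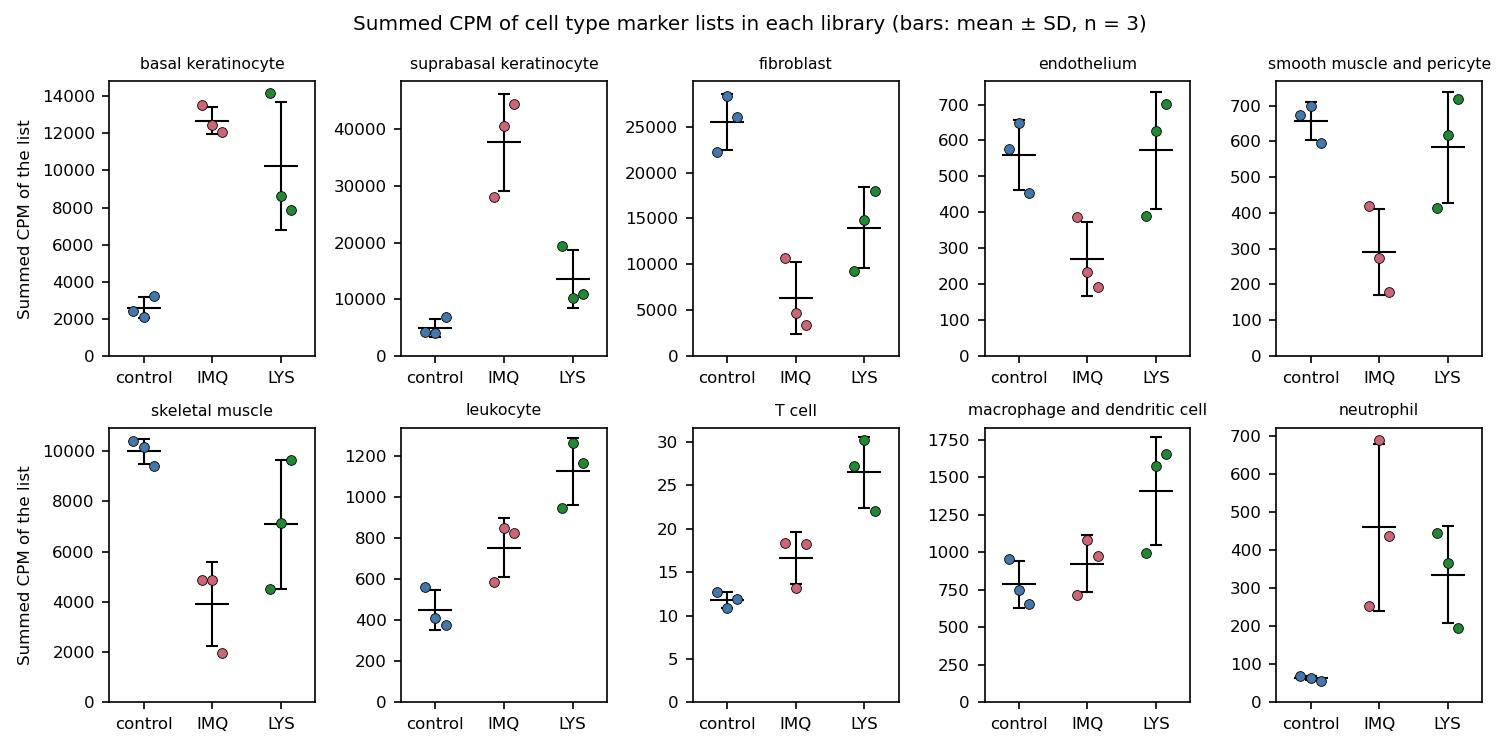
Summed CPM of 10 cell type marker lists (y axis) in each library by group (x axis), with bars for the mean ± SD (n = 3). Fibroblast, endothelial and smooth muscle lists are lowest on average in the IMQ group, both keratinocyte lists are lowest in the control group, and the leukocyte and T cell lists are highest in the LYS group.

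Of the 3 genes that matched by name only, Itgb1bp2 (melusin, a muscle protein) and Itgb3bp fell in the IMQ group (-2.51 and -1.09) and were lower than control in the LYS group (-1.62 and -1.18). Itgb1bp1 was not called (-0.49 and -0.43). Exons of 19 of the 50 genes overlap another gene, and for 10 the overlap exceeds 5% of the exon length. Since the sources used here do not give the strand setting of the counting, reads of those overlaps cannot be assigned with certainty.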

How the data were processed

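RNA of back skin was sequenced from the control, IMQ and LYS groups (NEBNext Ultra libraries, 3 per group). The authors deposited raw read counts per gene, as whole numbers, and FPKM for 29205 Ensembl genes. Each FPKM equalled the count per fixed gene length and per summed counts. The submitters' processing notes name HISAT2, HTSeq 0.13.5 and GRCm38, without their roles. Chi-square over degrees of freedom was 18.4 to 109 between replicates, above counting noise.

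The counts were tested with edgeR 4.0.16 in R 4.3.3 (TMM, filterByExpr, quasi-likelihood test), each fit holding the 6 libraries compared, and the tool was tested on simulated data. DESeq2 1.42.0, RLE size factors, library totals alone, no filter, all 9 libraries, a replicate block, other fold thresholds, other pseudocounts for ratios and leaving out each library were alternatives. Figures used matplotlib 3.10.9. Every member described may be named, and 1 gene that the rule matched is not reported here. Library values are given for chains of known pairs or trimers and for the member with the largest change in each class and comparison at 1 CPM or more. Genes of the pathway lists are the 2 with the smallest p in each direction. Members and lists were chosen with earlier results of these data known. Promoters are from RefSeq (GRCm38.p6), and positions from GENCODE M21, where 44 of 50 gene lengths equalled those behind the FPKM.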

Additional observations from a re-analysis of the deposited data

How the results depend on the processing

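For LYS against IMQ, members called higher and lower numbered 21 and 3 under DESeq2, 17 and 2 with no filter on low counts, and 18 and 3 when all 9 libraries shared a fit, against 0 and 0 in the main fit. RLE size factors, library totals alone and the replicate block also gave 0 and 0. The counts were 13 and 1 without IMQ 1, 19 and 3 without LYS 1 and 0 without any other library (range 0 to 19 and 0 to 3). For LYS against control, 6 members were called higher with the fold threshold at 1 on the log2 scale, and leaving out a library gave 4 to 14 higher and 4 to 10 lower. For IMQ against control it gave 9 higher each time and 18 to 22 lower. Leaving out a library can only keep or add separations between groups of ratios. Ratios without overlap then ranged from 8 to 9, 5 to 8 and 5 to 8 in the 3 comparisons. The cause was not tested.

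Scaling by library totals alone moved the median of all genes from -0.06 to -0.51 in IMQ against control, from 0.04 to 0.29 in LYS against IMQ and from -0.01 to -0.15 in LYS against control, and gave 6 higher and 25 lower members in the first. With it these uncalled values changed sign. In IMQ against control they were Itgb7 -0.16, Itga3 -0.42, Plec -0.24, Itgb5 -0.13, Dst -0.33, Itgb6 -0.17, Itgav -0.072 and Frem2 -0.42. In LYS against IMQ they were Lama3 0.10, Lamb3 0.072 and Itgav 0.24. In LYS against control they were Itga5 -0.054 and Itga1 -0.10. With no filter, Itga3 was -0.0044 and Frem2 -0.0050 in IMQ against control and Itgav 0.0015 in LYS against IMQ. With each library left out in turn, uncalled members changed sign as well, among them several of those just named. For IMQ against control their ranges were Dst -0.014 to 0.26, Frem2 -0.12 to 0.31, Itga10 -0.39 to 0.11, Itga3 -0.087 to 0.26, Itgam -0.37 to 0.19 and Itgb2 -0.23 to 0.037. For LYS against IMQ their ranges were Itga6 -0.00699 to 0.21, Itgae -0.029 to 0.22, Itgav -0.14 to 0.13 and Lamb3 -0.53 to 0.052. For LYS against control their ranges were Agrn -0.20 to 0.0899, Hspg2 -0.016 to 0.32, Itga1 -0.14 to 0.28, Itga11 -0.12 to 0.90, Itga2b -0.20 to 0.063, Itga5 -0.025 to 0.18, Itgb6 -0.47 to 0.082, Lama5 -0.35 to 0.0061 and Lamb2 -0.35 to 0.088.

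Same-numbered libraries had correlations of deviations between -0.460 and 0.200 over the 3 comparisons, and differently numbered ones between -0.295 and 0.470. These correlations depend on each other with 3 libraries in a group, and cannot exclude a pairing by replicate number. With the replicate number as a block, 9 members rose and 21 fell in IMQ against control, 0 were called in LYS against IMQ, and 7 were higher and 5 lower in LYS against control, where Itga1 was -0.033 and Lama3, Lama4, Itga6 and Itgb7 lost their call. Depth limits Lama1, Itgad, Itgb2l and Itga10, which had few counts.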
